A study of Mus musculus with 2 samples.

Results

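A set of 9 tight junction genes was followed in endothelial cells isolated from mice, the cells that line blood vessels. They were the claudins Cldn5 and Cldn12, the MARVEL-domain proteins Ocln and Marveld2, the tricellular receptor Lsr, the scaffolds Tjp1 and Tjp3, and the junctional adhesion molecules F11r and Jam2. The members were taken by gene name, and all 9 were found among the 53465 genes of the deposited table. One library came from mice treated with NeuroD1, a transcription factor of neuronal differentiation, and 1 from mice treated with GFP, a fluorescent protein that serves as the control. Both groups were C57Bl/6 mice carrying tie2-cre, a Cre recombinase driven by Tie2 sequences, which are active in endothelium and also in part of the blood cell lineage. Cells of 3 mice were collected and 10000 cells were lysed, per the labels' protocols, which do not say whether 3 mice stand behind each library. Age, vector, dose and time after treatment are not given in the labels, and neither is whether these animals had the ischemic stroke that the series' title names.

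Tight junctions seal the cleft between neighbouring cells. Claudins form the sealing strands, occludin (Ocln) and tricellulin (Marveld2) belong to a shared tetraspan family, and LSR brings tricellulin to the points where several cells meet. Junctional adhesion molecules bind across the cell contact, and the zonula occludens scaffolds (Tjp1, Tjp3) tie the membrane proteins to actin. In brain capillaries these junctions are a main part of the blood-brain barrier, and Cldn5 is the claudin best known for it.

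Each group is 1 library, so differences have no replicate check, no test was possible, and the library and the treatment cannot be told apart. Values are FPKM, reads scaled by exon length and by a library factor. RNA was primed with DRUG-seq primers, which tag the 3' end of transcripts, so dividing by the whole exon length may misplace genes relative to each other, an effect that was not tested. Whole reads were recovered from the values, and intervals given below are exact 95% intervals of those reads. They cover counting error only. Fewer cells of a type and less RNA per cell cannot be told apart in such bulk samples.

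Recovered reads came to 2001425 in the NeuroD1 library and 2011126 in the GFP library, of which the predicted gene Gm10800 alone held 41.9% in NeuroD1 and 37.7% in GFP. Neurod1 stood at 182 FPKM in the NeuroD1 library (970 reads), against 0.664 FPKM in the GFP library (4 reads). Of 17 endothelial markers, 16 were above the level of chemoreceptor genes described below in NeuroD1 and 16 in GFP. No marker of any list was at 0 in either library, but few genes were. Of the 1515 chemoreceptor genes, 60 were at 0 in NeuroD1 and 35 in GFP. The 17 endothelial markers, Cldn5 among them, summed to 288 FPKM in NeuroD1 and 256 FPKM in GFP. The 9 neuron markers summed to 58.5 FPKM in NeuroD1 and 48.7 FPKM in GFP, and their most abundant gene, Rbfox3, held 31.02 FPKM in NeuroD1 and 26.8 FPKM in GFP. The other lists summed to 16.3 to 35.3 FPKM in NeuroD1 and 22.2 to 34.9 FPKM in GFP. Of these, microglial markers came to 25.4 FPKM in NeuroD1, with 1 of 10 above the chemoreceptor level, and 34.9 FPKM in GFP, with 4 of 10. The part of other cell types in the values of the tight junction genes was not tested.

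As a yardstick, 1515 protein-coding genes for odour, pheromone and taste receptors, which endothelial cells are not known to use, had a median of 1.40 FPKM in NeuroD1 and 1.54 FPKM in GFP. Their 95th percentile was 4.79 FPKM in NeuroD1 and 4.38 FPKM in GFP. All 22040 protein-coding genes had a median of 2.98 FPKM in NeuroD1 and 3.10 FPKM in GFP. Of the tight junction genes 7 were above that percentile in both libraries. The exceptions were Marveld2 in NeuroD1 and Lsr in GFP. Of the 19918 protein-coding genes with a mean of at least 1 FPKM, 5425 were above it in NeuroD1 and 6606 in GFP.

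NeuroD1 belongs to the basic helix-loop-helix factors, which bind E-boxes with the letters CANNTG. The 250 bases before the annotated start are therefore shown for the 2 most abundant members and for the tricellular pair that the largest difference concerns. Sequences are from RefSeq on GRCm38.p6, read 5′ to 3′ on the gene's strand, and capitals mark CANNTG, which reads alike on both strands. The windows lie at chr16:18776597-18776846 on the plus strand for Cldn5, and on the minus strand at chr5:5514977-5515226 for Cldn12, chr13:100616972-100617221 for Marveld2 and chr7:30973470-30973719 for Lsr.
Cldn5: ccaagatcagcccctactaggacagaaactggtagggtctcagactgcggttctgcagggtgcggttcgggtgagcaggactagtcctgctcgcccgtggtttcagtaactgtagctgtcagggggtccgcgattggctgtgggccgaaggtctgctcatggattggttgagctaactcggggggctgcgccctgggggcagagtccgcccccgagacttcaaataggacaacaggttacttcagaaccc
Cldn12: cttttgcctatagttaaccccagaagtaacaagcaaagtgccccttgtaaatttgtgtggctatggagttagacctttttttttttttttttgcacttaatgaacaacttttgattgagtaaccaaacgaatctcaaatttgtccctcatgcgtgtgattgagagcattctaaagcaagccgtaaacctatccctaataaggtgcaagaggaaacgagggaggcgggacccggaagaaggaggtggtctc
Marveld2: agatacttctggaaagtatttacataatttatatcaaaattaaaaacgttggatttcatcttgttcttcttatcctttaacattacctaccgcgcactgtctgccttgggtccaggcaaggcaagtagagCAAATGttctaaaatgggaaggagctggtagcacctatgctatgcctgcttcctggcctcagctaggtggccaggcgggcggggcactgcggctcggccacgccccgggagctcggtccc
Lsr: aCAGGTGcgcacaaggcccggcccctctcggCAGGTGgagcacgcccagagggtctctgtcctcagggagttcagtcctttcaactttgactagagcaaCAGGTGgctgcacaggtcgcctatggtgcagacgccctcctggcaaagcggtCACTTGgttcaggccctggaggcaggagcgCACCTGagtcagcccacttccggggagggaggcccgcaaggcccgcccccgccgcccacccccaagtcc

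The windows of Cldn5 and Cldn12 held no CANNTG. The Marveld2 window held 1, whose first base lies 120 bases before the start, and the Lsr window held 5, of which 3 read CAGGTG. The table matched 8 of the 9 members, with 13 windows, since some genes have several starts, and Jam2 had no entry. CANNTG was present in 7 of the 13 windows, against 66.2% of all 32851 windows of this length. The forms CAGATG and CAGCTG, counted on both strands and contained in CANNTG, were in 0 of the 13 windows, against 14.4% and 13.0% of all windows. These matches describe letters only and are no evidence of binding.

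Per exon length, the claudins were the most abundant members. By reads alone, Cldn12 also led in both libraries, but Cldn5 lay below Tjp1 in both and below Jam2 in NeuroD1. Cldn5, a single-exon gene at chr16:18776847-18778262, stood at 31.5 FPKM in NeuroD1 (87 reads) and 33.9 FPKM in GFP (106 reads). Cldn12, a claudin at chr5:5489537-5514958, stood at 44.9 FPKM in NeuroD1 (370 reads) and 34.8 FPKM in GFP (325 reads). Cldn5 was thus close to its GFP level in NeuroD1, and Cldn12 was above it. Fewer than 1 in 100 protein-coding genes exceeded either claudin, namely 0.603% for Cldn5 in NeuroD1 and 0.426% in GFP, and 0.349% for Cldn12 in NeuroD1 and 0.413% in GFP. Such a level was still not beyond every chemoreceptor gene. The mean of both libraries was 38.6 FPKM for the odour receptor gene Olfr1239, against 32.7 FPKM for Cldn5 and 39.8 FPKM for Cldn12. The ratio of NeuroD1 over GFP was 0.930 for Cldn5, with an interval of 0.692 to 1.25, which spans changes in either direction. It was 1.29 for Cldn12, with an interval of 1.11 to 1.50, but with equal FPKM totals in the 2 libraries it was 1.09 and its interval of 0.941 to 1.27 held 1. Among the 162 protein-coding genes with a mean of 20 to 50 FPKM, where both claudins lie, 85.2% were higher in NeuroD1 and the median difference of log2(FPKM + 1), NeuroD1 minus GFP, was 0.23. On that scale the difference was 0.36 for Cldn12 and -0.10 for Cldn5, so that Cldn12 lay on the side of most genes of its abundance and Cldn5 did not.

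**Figure D1:**
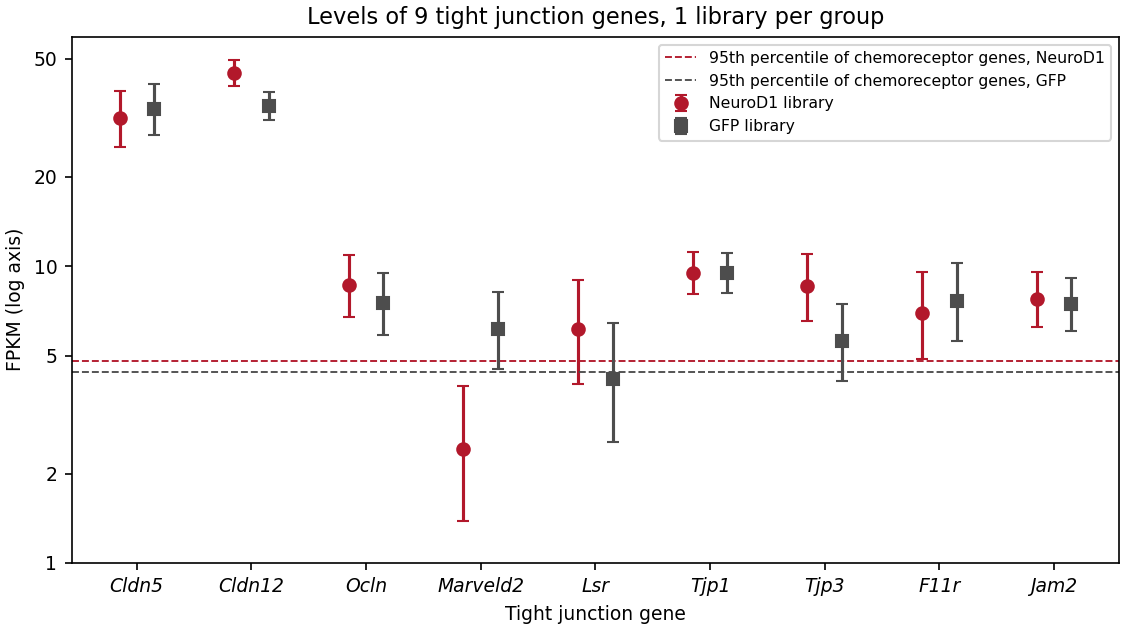
FPKM (log axis) of the 9 tight junction genes in the NeuroD1 library (circles) and the GFP library (squares), 1 library each, with bars for exact 95% counting intervals and dashed lines for the 95th percentile of chemoreceptor genes. Cldn5 and Cldn12 lie above 30 FPKM in both libraries, the others below 10 FPKM, and Marveld2 in NeuroD1 and Lsr in GFP are under their dashed lines.

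Of the MARVEL genes, Marveld2 differed beyond counting error and Ocln did not. Ocln, which encodes occludin at chr13:100496507-100552718, stood at 8.62 FPKM in NeuroD1 (71 reads) and 7.51 FPKM in GFP (70 reads). Its ratio was 1.15, with an interval of 0.814 to 1.62. Marveld2 encodes tricellulin, the MARVEL protein of tricellular contacts, and lies at chr13:100595957-100616971 on the same strand, 43238 bases from Ocln. It stood at 2.43 FPKM in NeuroD1 (16 reads) and 6.16 FPKM in GFP (46 reads). Marveld2 was thus the lowest of the 9 members in NeuroD1, where it lay inside the range of chemoreceptor genes, and seventh in order in GFP, where it lay above that range. A gene of its length at the chemoreceptor median would hold 9.26 reads in NeuroD1 and 11.5 reads in GFP. The ratio for Marveld2 was 0.394, with an interval of 0.208 to 0.709, and 0.334, with an interval of 0.177 to 0.602, with equal FPKM totals in the 2 libraries. Its difference of -1.06 on the log2(FPKM + 1) scale was the only one among the members past a threshold of 1 in either direction, and it was -0.59 with a pseudocount of 5. Marveld2 is also an epithelial gene, and the 6 epithelial markers summed to 16.3 FPKM in NeuroD1, with 0 above the chemoreceptor percentile, and 22.2 FPKM in GFP, with 2 above it. The most abundant of the 6, Krt18, stood at 4.03 FPKM in NeuroD1 and 8.08 FPKM in GFP, so it weighs heavily in that sum. On the log2(FPKM + 1) scale 1 of the 6 was higher in NeuroD1 and 5 were lower. The 9 markers of choroid plexus epithelium lay the other way, at 35.3 FPKM in NeuroD1, with 3 above that percentile, and 30.0 FPKM in GFP, with 2 above it. Of these 9, 7 were higher in NeuroD1 and 2 lower, and the most abundant, Folr1, was lower, at 7.81 FPKM against 11.6 FPKM in GFP. The part of either epithelium in the difference of Marveld2 was not tested.

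Lsr, which encodes the angulin that recruits tricellulin, lies at chr7:30957770-30973464 and stood at 6.14 FPKM in NeuroD1 (26 reads) and 4.17 FPKM in GFP (20 reads). The partner gene of Marveld2 was thus higher in NeuroD1, but by few reads: its ratio was 1.47, with an interval of 0.791 to 2.78. Exons of the predicted gene Gm4673 on the opposite strand overlap 43.6% of the exon bases of Lsr. Gm4673 stood at 5.18 FPKM in NeuroD1 and 2.03 FPKM in GFP, and the sources used here do not say whether counting used strand, so reads of the pair cannot be told apart.

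Tjp1 encodes ZO-1, the scaffold common to epithelial and endothelial junctions, at chr7:65296165-65527781, and stood at 9.52 FPKM in NeuroD1 (145 reads) and 9.50 FPKM in GFP (164 reads). Tjp3 encodes ZO-3, best known from epithelia, at chr10:81273207-81291581, and stood at 8.56 FPKM in NeuroD1 (62 reads) and 5.61 FPKM in GFP (46 reads). Tjp1 had nearly equal values in the 2 libraries, and the value of Tjp3 was higher in NeuroD1. The ratio was 1.001 for Tjp1, with an interval of 0.795 to 1.26. For Tjp3 it was 1.53, with an interval of 1.03 to 2.29, but with equal FPKM totals in the 2 libraries it was 1.30 and its interval of 0.871 to 1.94 held 1. Its exons overlap those of Apba3 by 40 bases.

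F11r encodes JAM-A at chr1:171437535-171464603 and stood at 6.93 FPKM in NeuroD1 (36 reads) and 7.65 FPKM in GFP (45 reads). Jam2 encodes JAM-B at chr16:84774123-84825928 and stood at 7.77 FPKM in NeuroD1 (89 reads) and 7.48 FPKM in GFP (97 reads). Both lay near the same level in the 2 libraries. Their ratios were 0.906 for F11r, with an interval of 0.568 to 1.44, and 1.04 for Jam2, with an interval of 0.771 to 1.40. Such intervals do not show that the genes were alike, and the one for F11r spans the widest range of the pair.

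**Figure D2:**
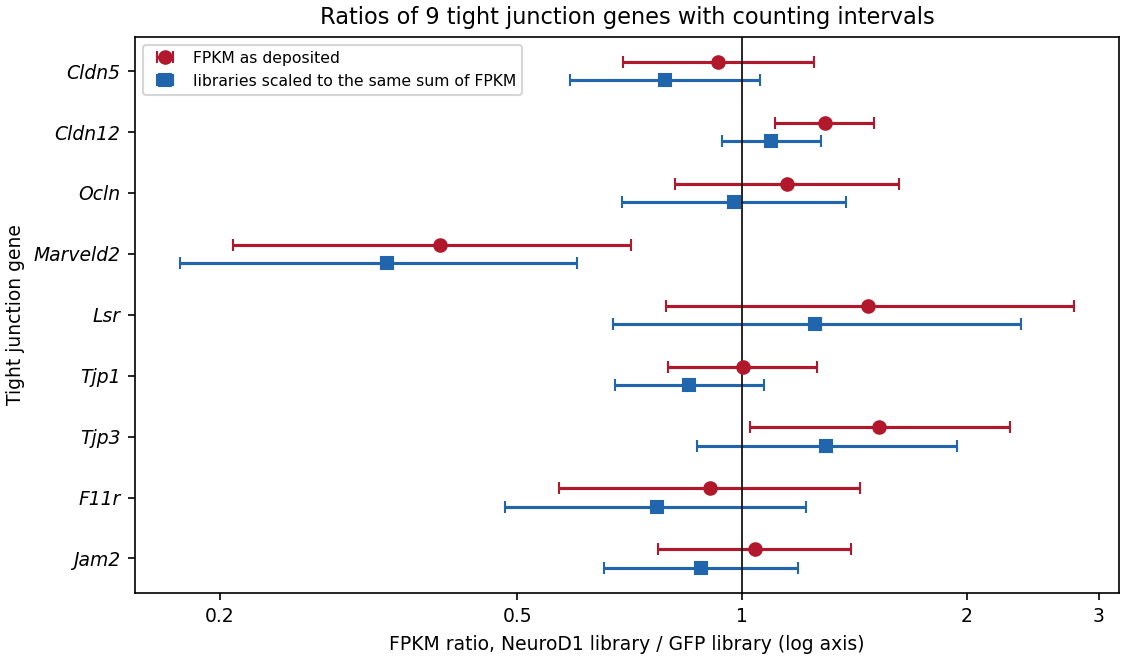
FPKM ratio of the NeuroD1 library over the GFP library (log axis) for each tight junction gene, with exact 95% counting intervals, for the FPKM as deposited (circles) and with equal FPKM totals (squares). Marveld2 lies below 1 under both scalings, at 0.394 and 0.334, though equal totals lower every ratio and so could not have raised it. Between the scalings shown, the intervals of Cldn12 and Tjp3 exclude 1 only as deposited. With genes above 1000 FPKM left out before scaling, which is not shown, both intervals also lie above 1.

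Ratios between members within a library do not depend on the scaling between libraries. Of 5 pairs of related members, chosen after the values were seen, 2 had an interval on one side of 1, and both involved Marveld2. Marveld2 relative to Ocln stood at 0.281 in NeuroD1 and 0.820 in GFP, a ratio of 0.343 with an interval of 0.166 to 0.689. Marveld2 relative to Lsr stood at 0.395 in NeuroD1 and 1.48 in GFP, a ratio of 0.268 with an interval of 0.109 to 0.651. The interval of Lsr's own ratio, 0.791 to 2.78, held 1, and its reads could not be told apart from those of Gm4673. Both pairs with Marveld2 share its reads and are not independent of its own difference. Cldn12 relative to Cldn5 stood at 1.42 in NeuroD1 and 1.03 in GFP, a ratio of 1.39 with an interval of 0.994 to 1.94. Tjp3 relative to Tjp1 stood at 0.899 in NeuroD1 and 0.590 in GFP, and the interval of 0.957 to 2.43 for the ratio of these held 1, so the scaffolds were not shown to differ from each other. F11r relative to Jam2 stood at 0.892 in NeuroD1 and 1.02 in GFP, with an interval of 0.498 to 1.52.

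The order of levels per exon length began alike in both libraries. In NeuroD1 it ran Cldn12, Cldn5, Tjp1, Ocln, Tjp3, Jam2, F11r, Lsr and Marveld2, and 3 of the 8 neighbouring pairs were apart beyond counting error, namely Cldn12 from Cldn5, Cldn5 from Tjp1, and Lsr from Marveld2. In GFP it ran Cldn12, Cldn5, Tjp1, F11r, Ocln, Jam2, Marveld2, Tjp3 and Lsr, and only Cldn5 from Tjp1 was apart. Cldn5 exceeded Tjp1 by a factor of 3.31 in NeuroD1 (interval 2.51 to 4.35) and 3.57 in GFP (interval 2.77 to 4.59). By reads alone Cldn5 lay below Tjp1, with 87 against 145 in NeuroD1 and 106 against 164 in GFP. The factor thus rests on the division by exon length, which these intervals do not cover. The intervals of all other neighbouring pairs held 1. Genes further apart in the order could still differ, as in GFP, where the interval of Tjp1 (8.11 to 11.1 FPKM) did not overlap that of Tjp3 (4.10 to 7.48 FPKM) or Lsr (2.55 to 6.44 FPKM).

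As a set, the 9 genes were spread about 0. On the log2(FPKM + 1) scale 6 were above 0 and 3 below, with a median difference of 0.05, against -0.01 for the 19918 protein-coding genes with a mean of at least 1 FPKM. Giving the 2 libraries equal FPKM totals shifted the median of these genes to -0.19 and that of the members to -0.16, and turned the sign of Ocln, Tjp1 and Jam2. At the threshold of 1, 0 members were higher and 1 was lower, against 2.33% and 3.31% of the protein-coding genes. All 9 members had at least 20 reads over both libraries, and the ratio's interval lay above 1 for 2 members and below 1 for 1, against 5.93% and 6.22% of the 14791 protein-coding genes with that many reads. With equal FPKM totals these counts were 0 and 1 members, against 252 and 2367 of those genes. With 9 members, counts this small describe single genes and set the group apart from no other.

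**Figure D3:**
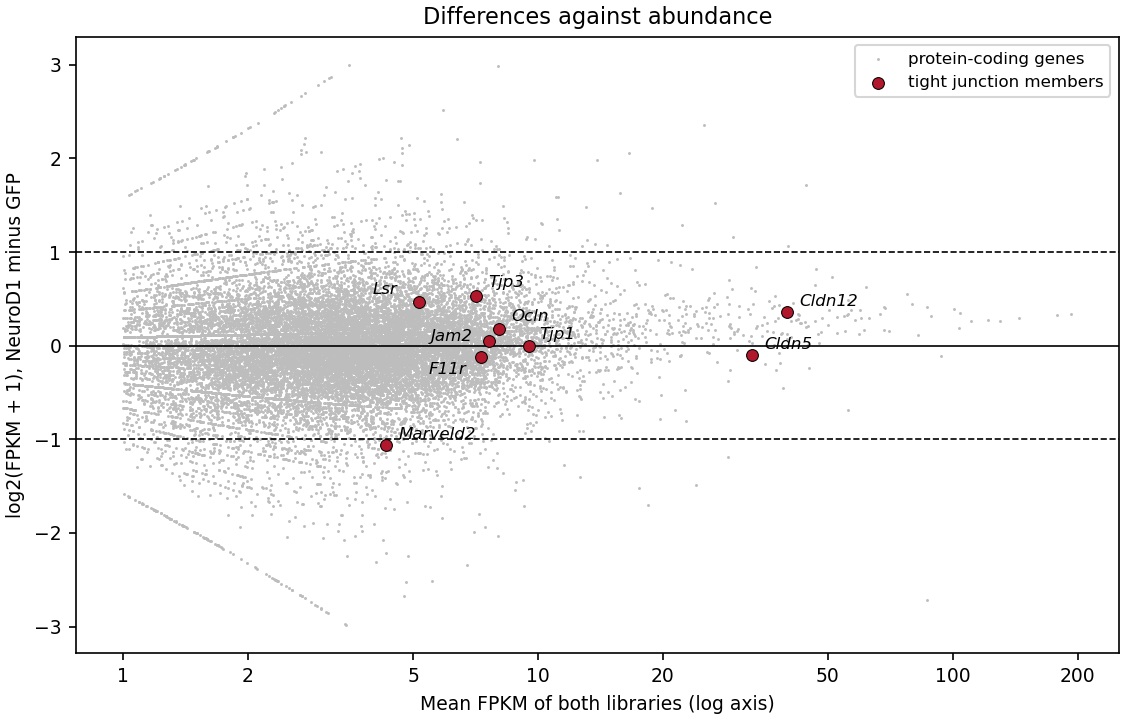
Difference of log2(FPKM + 1), NeuroD1 minus GFP, against the mean FPKM of both libraries (log axis) for protein-coding genes (grey) and the tight junction members (red), with dashed lines at 1 and -1; 37 genes lie outside the axes. Marveld2 lies just past the lower line at -1.06, and Cldn12 and Cldn5 lie at the abundant end on either side of 0.

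Other genes of the junction were read from lists of related proteins. Of 33 other claudins, 14 were above 0 and 18 below, with a median difference of -0.03. Only 27 of the 33 had a mean of at least 1 FPKM, so the unfiltered 33 and the filtered protein-coding genes named next are unlike sets. The median level of the 33 was 2.82 FPKM in NeuroD1 and 2.26 FPKM in GFP, and 7 were above the 95th percentile of chemoreceptor genes in each library. Of the 19918 protein-coding genes with a mean of at least 1 FPKM, 5425 were above it in NeuroD1 and 6606 in GFP. No other claudin stood as high as Cldn5 or Cldn12 in either library. The most abundant was Cldn34b2, at 16.2 FPKM in NeuroD1 and 6.30 FPKM in GFP (34 reads in NeuroD1 and 15 in GFP, ratio 2.57, interval 1.36 to 5.07), followed by Cldn34b3 at 11.4 FPKM in NeuroD1 and 9.25 FPKM in GFP, and Cldn34b1 at 8.08 FPKM in NeuroD1 and 8.39 FPKM in GFP. These belong to a cluster of related genes between which the counting could split reads, so their values are uncertain. Cldn15, a claudin of the intestinal epithelium, stood at 2.90 FPKM in NeuroD1 and 7.03 FPKM in GFP (12 reads in NeuroD1 and 33 in GFP, ratio 0.412, interval 0.194 to 0.818), a difference of -1.04. Of the 27 with a mean of at least 1 FPKM, 3 were past the threshold upward and 2 downward, against 2.33% and 3.31% of protein-coding genes. The 3 of them not yet named rest on few reads and were named after their values were seen. They were Cldn34c3 with 10 reads in NeuroD1 and 4 in GFP, Cldn23 with 9 in NeuroD1 and 1 in GFP, and the pseudogene Cldn34-ps with 0 in NeuroD1 and 3 in GFP.

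Of 31 other tight junction genes, 16 were above 0 and 15 below, with a median of 0.01. In this list 1 gene was past the threshold, upward, against 2.33% of protein-coding genes with a mean of at least 1 FPKM. It was Jam3, which encodes JAM-C, the relative of F11r and Jam2, at 4.01 FPKM in NeuroD1 and 1.27 FPKM in GFP (25 reads in NeuroD1 and 9 in GFP, ratio 3.15, interval 1.42 to 7.66). Jam3 was thus higher in NeuroD1 beyond counting error, though it lay within the chemoreceptor range in both libraries. Among the most abundant were Esam, an endothelial adhesion molecule, at 11.8 FPKM in NeuroD1 and 12.6 FPKM in GFP, and Arhgef2, an exchange factor for small GTPases, at 8.39 FPKM in NeuroD1 and 8.32 FPKM in GFP. Both were near the same level in the 2 libraries, and the interval of each ratio held 1.

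Of 11 genes of adherens junctions and endothelial contacts, 5 were above 0 and 6 below, with a median of -0.04 and none past the threshold. Afdn, which encodes the actin-binding adaptor afadin, stood at 31.3 FPKM in NeuroD1 and 22.8 FPKM in GFP (ratio 1.38, interval 1.22 to 1.55). It lies in the abundance range of the claudins, where most genes were higher in NeuroD1, and the ratio of Afdn was close to that of Cldn12. Pecam1, an endothelial adhesion molecule, stood at 14.4 FPKM in NeuroD1 and 12.4 FPKM in GFP, and the phosphatase gene Ptprb at 10.4 FPKM in NeuroD1 and 11.4 FPKM in GFP, and the interval of each held 1, but with equal FPKM totals that of Ptprb, 0.660 to 0.916, lay below 1. Of 21 Wnt and transcription factor genes of the barrier, 13 were above 0 and 8 below, with a median of 0.12 and none past the threshold. Adgra2, the Wnt7 co-receptor GPR124, was level at 15.6 FPKM in NeuroD1 and 15.5 FPKM in GFP. The transcription factor gene Sox18 stood at 11.7 FPKM in NeuroD1 and 6.43 FPKM in GFP (ratio 1.82, interval 1.05 to 3.21), but with equal FPKM totals the interval of 0.895 to 2.73 held 1. Tcf7l1, which encodes a Wnt effector, stood at 7.45 FPKM in NeuroD1 and 7.84 FPKM in GFP.

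**Figure D4:**
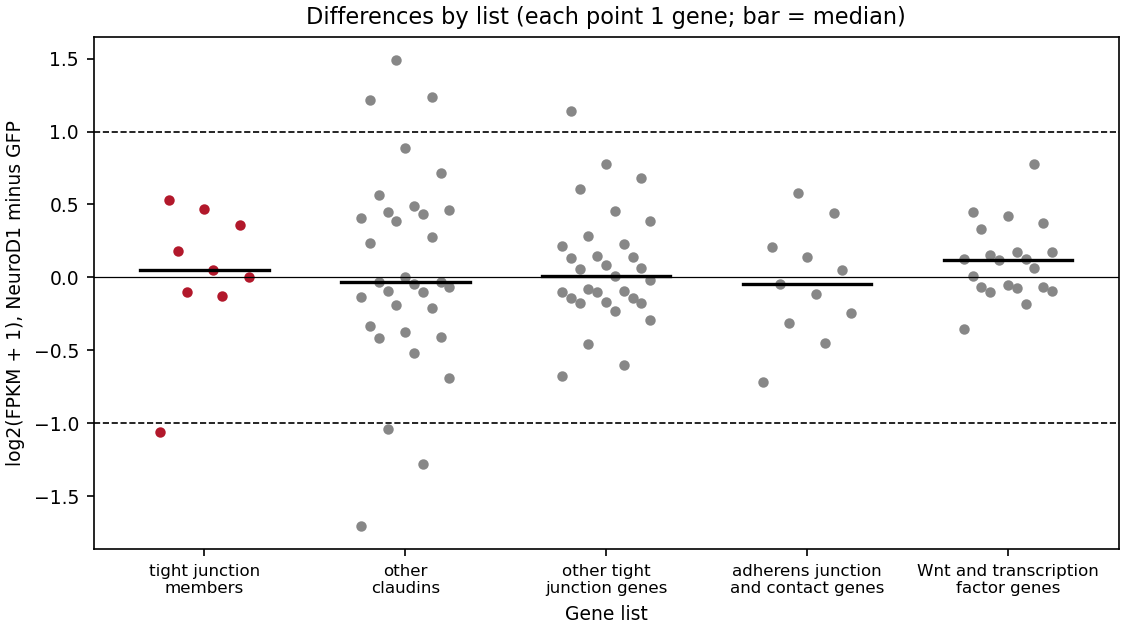
Difference of log2(FPKM + 1), NeuroD1 minus GFP, for each gene of 5 lists (points) with the list's median (bar) and dashed lines at 1 and -1. The medians lie between -0.04 and 0.12, and the claudins outside the members spread the widest, many of them on few reads.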

How the data were processed

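Expression was measured in 2 libraries, 1 per group. The values are FPKM as the authors deposited them, in a single table. Per the submitters' processing notes, the build was GRCm38 and the tools included DESeq (version not stated), featureCounts 1.6.3 and Bowtie2 2.3.5.1. The sources used here do not say how strand, multiply mapped reads or molecular identifiers were handled.

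FPKM times merged exon length in GENCODE M21 (GRCm38) came in whole multiples of 1 step per library, 513 in NeuroD1 and 453 in GFP, for 51075 genes (95.5%, within 0.02 reads). For Cldn5 and Jam2 the values fit a single length within 10% of the annotated one, 1414 bases against 1416 and 5872 against 6045, and reads were taken at that length, a step added after seeing the data. The steps carry the authors' scaling between libraries, which was kept.

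Differences are log2(FPKM + 1), NeuroD1 minus GFP, which understates changes of low genes. Genes with a mean of at least 1 FPKM were compared with a threshold of 1 on this scale. Ratios have Clopper-Pearson intervals, pairs of genes exact conditional ones, and single levels exact Poisson ones. Reads may include copies of one molecule. No p-value was computed. Exon overlaps come from GENCODE M21 and promoter windows from RefSeq. Recovery of reads and the ratio intervals were run on simulated Poisson counts built with the same exon lengths. That run held no read copies or length mismatches, so it cannot speak to them.

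The members and lists were chosen with earlier results of these data known. All members are named. Of each other list the rule names the 3 with the highest mean, and those past the threshold with at least 20 reads. One gene the rule names is not reported here. Alternatives were pseudocounts of 0.1 and 5, 2 scalings and other filters, and, chosen after seeing the data, equal totals for the intervals of the other lists. Work was done in Python 3.11.15 with matplotlib 3.10.9, pandas 2.3.3, scipy 1.17.1 and numpy 2.4.6.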

Additional observations from a re-analysis of the deposited data

How the results depend on the processing

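No paired analysis was possible because the groups hold a single library apiece, and for that reason none could be left out in turn. Of 36 values of the members' differences under 4 alternatives, 35 stayed within counting error of the first value and 1 moved beyond it, that of Cldn12 with equal FPKM totals in the 2 libraries (0.13). Wide intervals at few reads make this no measure of stability. The sign turned in 3 of them, for Ocln, Tjp1 and Jam2 under that same scaling. Marveld2 was lower in NeuroD1 under every alternative run, but none of them could have turned its sign. A pseudocount cannot do so, and the scalings multiplied NeuroD1 values by only 0.849 or 1.003. With a pseudocount of 5, the count of members past the lower threshold was 0 and the members' median was 0.0335. With equal totals, the members' median was -0.158, that of protein-coding genes -0.192, 274 protein-coding genes were past the upper threshold, and 0 members had an interval above 1. Leaving out genes above 1000 FPKM before that scaling changed NeuroD1 values by a factor of 1.003, against 0.849 with them, so the shift comes from those genes. Protein-coding genes past the thresholds, 464 higher and 659 lower at first, numbered 1007 and 1386 at a pseudocount of 0.1, 43 and 49 at 5, and 94 and 69 at a mean of at least 5 FPKM, where their median was 0.0551. A filter changes such counts by construction. Depth limits the lowest members most, with 16 reads for Marveld2 in NeuroD1 and 20 for Lsr in GFP.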

Other observations

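Among the 4 lists of related genes, 65 of 96 genes had at least 20 recovered reads, and the ratio's interval lay above 1 for 7 and below 1 for 3, against 5.93% and 6.22% of protein-coding genes with that many reads. With equal FPKM totals in the 2 libraries, an alternative chosen after seeing the data, the counts were 3 and 13, against 252 and 2367 of 14791 protein-coding genes. Of the 13, 5 were among the 10 adherens junction and contact genes with that many reads. The rest were 2 of 11 other claudins, 4 of 27 other tight junction genes and 2 of 17 Wnt and transcription factor genes. The intervals of Rab13, Ybx3 and Amot then held 1, with lower bounds of 0.923, 0.944 and 0.851, and those of Patj and Cdh2 stayed below 1. Those not yet described were named after their values were seen. Rab13, a GTPase of junction assembly, stood at 8.47 FPKM in NeuroD1 and 4.53 FPKM in GFP (38 reads in NeuroD1 and 23 in GFP, ratio 1.87, interval 1.09 to 3.29). Ybx3, which encodes a ZO-1 associated factor, stood at 9.34 FPKM in NeuroD1 and 5.45 FPKM in GFP (56 reads in NeuroD1 and 37 in GFP, ratio 1.71, interval 1.11 to 2.67). Amot, an angiomotin gene, stood at 3.11 FPKM in NeuroD1 and 1.99 FPKM in GFP (51 reads in NeuroD1 and 37 in GFP, interval 1.003 to 2.45). A pair of genes of cell contacts lay the other way: Patj, a polarity scaffold of the tight junction, at 1.29 FPKM in NeuroD1 and 2.66 FPKM in GFP (33 reads in NeuroD1 and 77 in GFP, ratio 0.485, interval 0.313 to 0.739), and Cdh2, which encodes N-cadherin, at 1.21 FPKM in NeuroD1 and 2.64 FPKM in GFP (19 reads in NeuroD1 and 47 in GFP, ratio 0.458, interval 0.254 to 0.795). Patj, Cdh2 and Amot lay within the chemoreceptor range in both libraries.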
